A study of Mus musculus with 15 samples.

Results

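Kruppel-like factors are zinc-finger proteins that bind CACCC boxes and related GC-rich DNA. The 10 described here, Klf2, Klf3, Klf4, Klf6, Klf7, Klf9, Klf10, Klf11, Klf12 and Klf13, were taken by gene name from tables of 56748 genes. All 10 had a row, and all 10 passed the filter on low counts that left 15619 genes for testing. Some family members chiefly activate transcription, as KLF2, KLF4, KLF6 and KLF7 do in many settings. KLF3 and KLF12 repress through the corepressor CtBP, and KLF9, KLF10, KLF11 and KLF13 repress through Sin3 and histone deacetylases. In T cells the family is best known for KLF2, which keeps cells quiescent, drives the gene for the egress receptor S1PR1, and is shut off by signals from the T cell receptor.

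RNA was sequenced in 15 libraries of mouse Th2 cells, the helper T cells that make IL-4 and IL-13, grown from naive CD4+ T cells of female spleens. Conditional knockout (cKO) cells carried VEC-Cre;Asb2fl/fl, and control cells carried Asb2fl/fl without Cre, so both genotypes had floxed Asb2 alleles. Asb2 encodes the subunit by which a ubiquitin ligase picks its substrates, and the VE-cadherin promoter that drives Cre is known for activity in endothelial cells and blood cell precursors. There were 4 stimulated cKO, 5 stimulated control, 3 resting cKO and 3 resting control libraries.

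All cells were primed for 3 days with anti-CD3ε at 5 µg/ml, anti-CD28 at 1 µg/ml, anti-IFNγ at 10 µg/ml, IL-2 at 10 ng/ml and IL-4 at 40 ng/ml. They were next kept without antibodies, in IL-2 and IL-4 at 20 ng/ml each, a step given as 3 days. On day 5 the stimulated cells received anti-CD3ε (3 µg/ml, coated) with anti-CD28 (2 µg/ml, soluble), for 24 h. Counted from the start of priming, day 5 lies within those 3 days, which for stimulated cells were then not all free of antibodies. Whether replicates are separate animals is not in the labels, so p-values speak of library-to-library spread, which may be technical.

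Libraries held 17.1 to 24.2 M estimated counts. Asb2 averaged 9.49 CPM in stimulated cKO libraries and 33.5 CPM in stimulated control libraries, where CPM is the count scaled to a common library size. At rest it had 12.7, 22.7 and 22.1 CPM in cKO libraries, against 34.7, 25.6 and 49.7 CPM in control libraries, so Asb2 RNA remained detectable in every cKO library. Its log2 fold change for cKO over control was -1.82 ± 0.18 after stimulation (SE, edgeR adjusted p = 3.4e-04) and -0.94 ± 0.21 at rest, where it was not called (SE, edgeR adjusted p = 1). All 9 markers of CD4 T and Th2 cells were detected in all 15 libraries. The endothelial markers Cdh5, Kdr and Tek reached at most 4, 1 and 1 counts in any library and Emcn had 0, whereas Pecam1, which leukocytes are also known to express, had 165 to 197 CPM in resting libraries. The erythroid genes Hba-a1, Hbb-bs, Hbb-bt and Alas2 had 0. Stimulated cKO replicate 3 had the highest mitochondrial share at 9.43%, and the others had 4.36% to 6.24%.

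Measured per transcript length, in TPM, the order of the family differed between stimulated and resting cells mainly through Klf2. In stimulated cells Klf6 stood first, with 102.9 ± 17.5 TPM in cKO (SD, n = 4) and 99.7 ± 15.03 TPM in control (SD, n = 5). It was followed by Klf13, at 36.2 ± 8.72 TPM in stimulated cKO and 37.6 ± 5.58 TPM in stimulated control, and by Klf10, at 29.7 ± 6.26 TPM in stimulated cKO and 26.5 ± 7.47 TPM in stimulated control. The library ranges of Klf13 and Klf10 overlapped in both genotypes, and both lay apart from Klf6 above and from Klf7 below. Klf7 and Klf9 came next at group means between 6.93 and 8.23 TPM, with overlapping ranges. At the foot of the order, Klf2 at 0.867 ± 0.167 TPM in stimulated cKO and 0.887 ± 0.235 TPM in stimulated control could not be separated by range from Klf4 and Klf3.

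At rest Klf2 stood second in both genotypes, at 50.8 ± 13.9 TPM in cKO and 46.8 ± 28.8 TPM in control (SD, n = 3 each). Its range overlapped those of Klf6, which averaged 67.8 TPM in resting cKO and 65.3 TPM in resting control, and of Klf13. Klf10 followed Klf13, at 32.1 ± 5.74 TPM in resting cKO and 38.0 ± 0.825 TPM in resting control, and the first 4 genes were separated by range from the other 6. Klf4 was last at rest, at 0.670 ± 0.0517 TPM in cKO and 0.912 ± 0.358 TPM in control. Klf2 made up 0.460% ± 0.101 of the summed TPM of the 10 genes in stimulated cKO and 0.467% ± 0.0744 in stimulated control. At rest its share was 23.1% ± 5.41 in cKO and 20.6% ± 9.39 in control. The sum itself was 191 ± 31.9 TPM in stimulated cKO and 188 ± 25.9 TPM in stimulated control, against 219 ± 17.5 TPM in resting cKO and 215 ± 40.5 TPM in resting control, and its library ranges overlapped between all 4 groups.

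**Figure D1:**
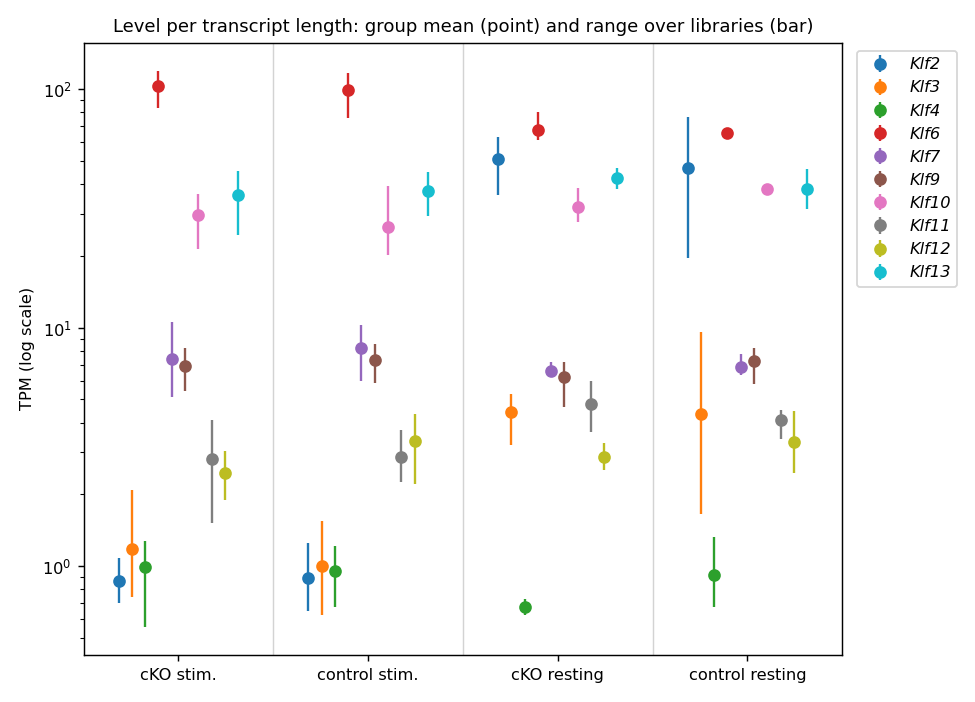
Levels of the 10 Kruppel-like factor genes per transcript length, in TPM on a log axis, for the 4 groups. Points are group means and bars run over the lowest and highest library; Klf2 stands second at rest and last, near 0.867 to 0.887 TPM, after stimulation.

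Klf2 and Klf3 fell after stimulation in both genotypes and Klf6 rose, and these 3 genes are shown with the DNA before their start sites. The sequences are the 250 bases before each start in RefSeq (build GRCm38.p6), at chr8:72318812-72319061 for Klf2, chr5:64803271-64803520 for Klf3 and chr13:5861239-5861488 for Klf6, each on the plus strand. Capitals mark matches, on either strand, to the GC box GGGCGG and the CACCC box CACCC, and in Klf2 also the MEF2 element CTAAATTTAG.
Klf2: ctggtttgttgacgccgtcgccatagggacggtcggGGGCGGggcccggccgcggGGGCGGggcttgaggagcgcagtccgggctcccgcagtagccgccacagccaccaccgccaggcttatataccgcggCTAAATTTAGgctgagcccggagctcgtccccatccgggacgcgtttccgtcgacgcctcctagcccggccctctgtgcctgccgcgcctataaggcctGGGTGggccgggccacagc
Klf3: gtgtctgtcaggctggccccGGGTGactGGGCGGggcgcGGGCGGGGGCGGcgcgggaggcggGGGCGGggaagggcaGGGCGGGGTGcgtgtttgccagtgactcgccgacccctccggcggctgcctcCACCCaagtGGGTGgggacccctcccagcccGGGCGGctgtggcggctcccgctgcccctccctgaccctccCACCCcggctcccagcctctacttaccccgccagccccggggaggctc
Klf6: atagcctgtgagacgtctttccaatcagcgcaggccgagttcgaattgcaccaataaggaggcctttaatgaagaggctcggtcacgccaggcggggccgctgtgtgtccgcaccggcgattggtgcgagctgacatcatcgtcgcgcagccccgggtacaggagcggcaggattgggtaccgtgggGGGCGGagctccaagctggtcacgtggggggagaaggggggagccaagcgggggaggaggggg
The MEF2 element of Klf2 lies 118 to 109 bases before the start. Its pattern, CTA and TAG with 4 free bases between them, matched 1 of the 9 members with a RefSeq entry and 3.2% of all 32851 promoters. MEF2 proteins are known to activate Klf2 downstream of the kinase ERK5 in endothelium and T cells. The GC box was found in 7 of 9 members and in 32.7% of all promoters, and the CACCC box in 6 of 9 members and in 52% of all promoters. The promoter of Klf3 held 6 GC boxes and 5 CACCC boxes, with 1 base shared between a pair of them, that of Klf2 held 2 and 1, and that of Klf6 held 1 and 0. The FOXO core GTAAACA was found in 1 of 9, Klf9, against 3.17% of all promoters. These matches describe the letters of the window only.

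The first question was how the family answered renewed T cell receptor stimulation in each genotype. A gene was called at a Benjamini-Hochberg adjusted p under 0.05 in edgeR's quasi-likelihood test over 15619 genes. In cKO cells 4 of the 10 genes were called, against 53.8% of all genes tested; 1 was higher, against 26.7%, and 3 were lower, against 27.1%. In control cells 7 of the 10 were called, against 50.6% of all genes tested; 1 was higher, against 25.4%, and 6 were lower, against 25.2%. Over all genes 3961 were higher and 3936 lower in control by edgeR, but 3754 were higher and 2108 lower by limma on log2(TPM + 0.1), where 3 members were lower. The library values of stimulated and resting cells did not overlap for 4 of the 10 in cKO, against 54.1% of genes, and for 5 of the 10 in control, against 47.9%. Among those called, 2 changed at least 2-fold in each genotype, Klf2 and Klf3, against 20.3% of genes in cKO and 17.9% in control. These counts lie near the background or below it, apart from the lower calls in control, whose members are described below with their limits. The median log2 fold change of the 10 genes was -0.15 in cKO, beside -0.01 over all genes tested, and -0.42 in control, beside 0.00 over all genes tested.

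Klf2 had 1.26, 1.15, 2.10 and 1.56 CPM in stimulated cKO libraries, against 102, 58.3 and 86.1 CPM in resting cKO libraries. In control cells it had 1.60, 1.47, 1.20, 1.06 and 1.91 CPM after stimulation, against 79.7, 133 and 36.8 CPM at rest. The lowest resting library of either genotype was thus far above the highest stimulated library. The values rest on 19 to 33 estimated counts in stimulated libraries and 850 to 2568 in resting libraries. The model put Klf2 55.5-fold lower in stimulated cKO than in resting cKO cells and 57.3-fold lower in stimulated control than in resting control cells (edgeR adjusted p = 1.6e-07 in cKO and 5.9e-08 in control). By log2 fold change it was the 25th lowest of 15619 genes in cKO and the 16th lowest in control.

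Klf3, a repressor that recruits CtBP, had 2.28, 1.72, 2.95 and 3.23 CPM in stimulated cKO libraries, against 12.9, 8.55 and 19.8 CPM in resting cKO libraries. In control cells it had 2.98, 1.87, 1.90, 1.73 and 2.83 CPM after stimulation, against 6.69, 26.9 and 6.66 CPM at rest. Stimulated and resting libraries did not overlap in either genotype, although the resting control values lay far apart. Klf3 fell by 2.45 ± 0.48 on the log2 scale in cKO (SE, edgeR adjusted p = 6.7e-04) and by 2.57 ± 0.45 in control (SE, edgeR adjusted p = 3.0e-04). The size in control rests on resting control replicate 2, without which the fall was 1.56 (edgeR adjusted p = 4.2e-04). C230096K16Rik, a gene on the same strand that overlaps Klf3 in GENCODE M21, had 0 to 8 counts in stimulated libraries and 11 to 39 in resting libraries, and how the authors' counting split reads between them was not tested.

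Some markers of naive T cells and of other cell types were lower in the same libraries. Of 4 naive T cell markers, 2 fell in cKO, Lef1 and Igfbp4, and 3 fell in control, with Tcf7 as the third. Over all genes tested 27.1% fell in cKO and 25.2% fell in control. Ccr7 was called in neither, at 75.6 CPM in stimulated against 68.1 CPM in resting cKO cells and 61.05 CPM in stimulated against 75.2 CPM in resting control cells. The summed CPM of the 4 markers was 332 to 391 in stimulated cKO libraries and 285 to 363 in stimulated control libraries, against 672 to 938 in resting cKO and 692 to 953 in resting control libraries.

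Of the 5 myeloid markers, Adgre1 and Itgam were tested and fell in both genotypes. Adgre1 had 0.269 to 2.09 CPM in stimulated cKO libraries, against 7.26 to 15.7 CPM in resting cKO libraries, and 0.638 to 1.45 CPM in stimulated control libraries, against 9.15 to 17.2 CPM in resting control libraries. Itgam averaged 0.0390 CPM in stimulated against 2.31 CPM in resting cKO cells and 0.309 CPM in stimulated against 2.57 CPM in resting control cells. The other myeloid markers Lyz2, Csf1r and Cd14 reached at most 0, 1 and 7 counts in any library. The summed CPM of the 5 was 0.484 to 2.24 in stimulated cKO and 0.798 to 2.23 in stimulated control, against 10.6 to 16.9 in resting cKO and 10.4 to 20.1 in resting control libraries.

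The NK cell marker Klrb1c also fell, at 0.243 to 1.97 CPM in stimulated cKO libraries, against 3.41 to 6.12 CPM in resting cKO libraries, and 0.372 to 2.01 CPM in stimulated control libraries, against 3.00 to 17.8 CPM in resting control libraries. Pecam1 fell to 44.7 to 58.2 CPM in stimulated cKO libraries, against 165 to 197 CPM in resting cKO libraries, and to 44.3 to 77.1 CPM in stimulated control libraries, against 171 to 191 CPM in resting control libraries. All these calls are edgeR's, at adjusted p of 0.0091 or below, and the part of these markers in the falls of Klf2 and Klf3 was not tested. In these bulk libraries fewer cells of a type and less RNA per cell cannot be told apart.

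Klf6, a widely expressed activator, was the member that rose in both genotypes. It had 387, 425, 452 and 394 CPM in stimulated cKO libraries, against 242, 235 and 306 CPM in resting cKO libraries. In control cells it had 394, 422, 321, 354 and 430.1 CPM after stimulation, against 302, 260.2 and 282 CPM at rest. No stimulated library overlapped a resting library of its genotype. The rise was 0.67 ± 0.12 on the log2 scale in cKO (SE, edgeR adjusted p = 1.2e-04) and 0.45 ± 0.11 in control (SE, edgeR adjusted p = 0.0026). Klf6 made up 53.8% ± 0.931 of the summed TPM of the family in stimulated cKO and 52.9% ± 2.69 in stimulated control, against 30.9% ± 3.12 in resting cKO and 31.1% ± 5.83 in resting control.

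**Figure D2:**
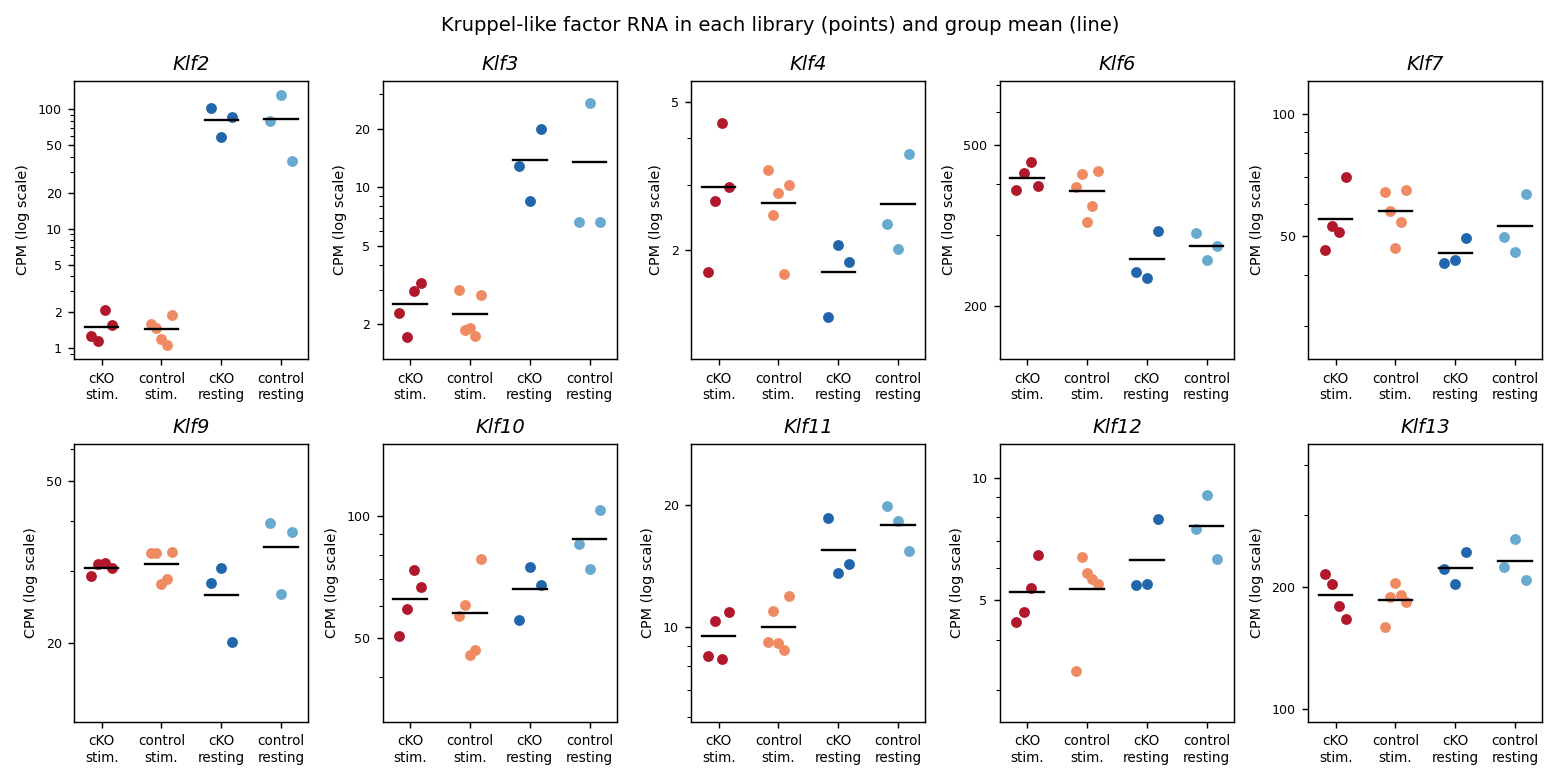
CPM of each Kruppel-like factor gene on a log axis in all 15 libraries. Points are libraries and lines are group means, with stimulated groups left of resting groups; Klf2, Klf3 and Klf11 are lower and Klf6 is higher in every stimulated library than in any resting library of the same genotype.

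Klf10 and Klf11 encode repressors known for their induction by TGF-beta. Klf11 had 8.51, 10.4, 8.32 and 10.9 CPM in stimulated cKO libraries, against 18.5, 13.6 and 14.3 CPM in resting cKO libraries. It had 9.20, 11.0, 9.15, 8.75 and 11.9 CPM in stimulated control libraries, against 19.9, 18.2 and 15.4 CPM in resting control libraries. The groups did not overlap in either genotype, and Klf11 fell by 0.70 ± 0.15 in cKO (SE, edgeR adjusted p = 8.6e-04) and by 0.83 ± 0.14 in control (SE, edgeR adjusted p = 1.0e-04). Klf10 had 50.7, 58.8, 73.4 and 66.8 CPM in stimulated cKO libraries, against 55.4, 75.0 and 67.4 CPM in resting cKO libraries, and these overlapped. In control cells it had 56.7, 60.5, 45.4, 46.8 and 78.5 CPM after stimulation, against 85.4, 74.1 and 103 CPM at rest, and replicate 5 of the stimulated libraries lay inside the resting range. The log2 fold change of Klf10 was -0.08 ± 0.18 in cKO, where it was not called, and -0.61 ± 0.17 in control (SE, edgeR adjusted p = 0.0067). Without resting control replicate 3, the Klf10 fall in control was 0.47 with an edgeR adjusted p of 0.051. The Klf11 call in control was lost on TPM scales, where its log2 fold change was -0.52 with a pseudocount of 0.1 and -0.41 with a pseudocount of 1.

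Klf12, which acts through CtBP, and Klf13, first described in human T cells as an activator of the chemokine gene CCL5, were lower after stimulation in control cells by small margins. Klf13 averaged 186 ± 16.4 CPM in stimulated control, against 232 ± 28 CPM in resting control (SD, n = 5 and n = 3), a log2 fold change of -0.32 ± 0.10 (SE, edgeR adjusted p = 0.017). In cKO it averaged 191 ± 22.4 CPM after stimulation and 223 ± 20.4 CPM at rest (SD, n = 4 and n = 3), a log2 fold change of -0.22 ± 0.11 that was not called (SE, edgeR adjusted p = 0.099). Klf12 averaged 5.34 ± 1.16 CPM in stimulated control, against 7.635 ± 1.4 CPM in resting control, a log2 fold change of -0.51 ± 0.20 (SE, edgeR adjusted p = 0.043), and its libraries overlapped.

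The calls of Klf12 and Klf13 in control rest on single libraries. Klf13 had a log2 fold change of -0.26 without stimulated control replicate 1 (edgeR adjusted p = 0.052) and -0.22 without resting control replicate 2 (edgeR adjusted p = 0.14). Klf12 had -0.37 without either of the same libraries, with edgeR adjusted p of 0.10 for the stimulated library left out and 0.22 for the resting one. Its call was also lost without stimulated control replicates 3, 4 or 5 or resting control replicate 1, where the log2 fold change lay between -0.52 and -0.53 and the edgeR adjusted p between 0.053 and 0.086.

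Klf4, an activator linked to quiescence, had 1.75, 2.71, 4.39 and 2.96 CPM in stimulated cKO libraries, against 1.32, 2.06 and 1.86 CPM in resting cKO libraries. Its log2 fold change of 0.74 ± 0.31 was just outside the threshold (SE, edgeR adjusted p = 0.051), and the groups overlapped through stimulated replicate 1. Without that replicate Klf4 had a log2 fold change of 0.93 (edgeR adjusted p = 0.015) and Klf13 one of -0.28 (edgeR adjusted p = 0.044), so both were then called in cKO. In control Klf4 averaged 2.67 CPM both after stimulation and at rest, a log2 fold change of -0.0049 with a 95% interval of -0.60 to 0.59. Klf7 and Klf9 were not called in either genotype. Klf7 differed by 0.28 ± 0.15 in cKO and 0.12 ± 0.14 in control, and Klf9, a repressor induced by glucocorticoids and thyroid hormone, by 0.23 ± 0.14 in cKO and -0.14 ± 0.13 in control (log2, SE).

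**Figure D3:**
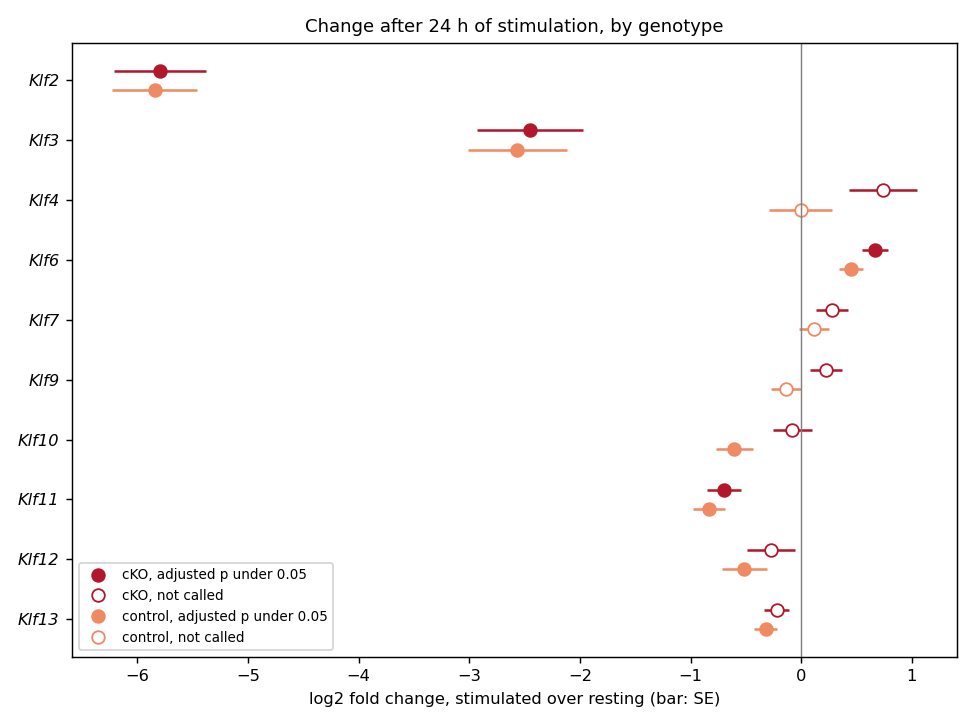
Log2 fold change of each gene between stimulated and resting cells, in cKO and control cells, from edgeR's model. Bars are SE and filled points were called; Klf2 lies near -5.8 and Klf3 near -2.5 in both genotypes, while the other 8 genes lie between -0.83 and 0.74.

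The second question was whether the family differed between cKO and control cells, taken library by library at rest. Asb2 itself was lower there, at a log2 fold change of -0.94, but was not called. No member was called between resting cKO and resting control cells by edgeR's quasi-likelihood test, as no gene at all was (0% of those tested). DESeq2 called 4 genes, limma called 3 on log2(TPM + 1) and 0 on log2(TPM + 0.1), with no member among them. At an unadjusted p under 0.05, 2 of the 10 differed, Klf9 and Klf10, against 2.57% of all genes. The resting groups of libraries overlapped for all 10 members, whereas 7.86% of all genes did not overlap. With 3 libraries against 3 an exact permutation test cannot go below p = 0.1, and for Klf2 it gave p = 0.8.

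The resting libraries of both genotypes spread widely in Klf2, and their ranges overlapped. In descending order, the 6 libraries were control replicate 2, cKO replicate 1, cKO replicate 3, control replicate 1, cKO replicate 2 and control replicate 3, so the genotypes were interleaved and control held both ends. The log2 fold change of Klf2 for cKO over control was -0.01, with a 95% interval of -0.76 to 0.73. It moved to 0.50 without control replicate 2 and to -0.37 without control replicate 3, and was not called in either case. Klf3 had a log2 fold change of 0.04, with a 95% interval of -0.97 to 1.06, and moved to 1.05 without control replicate 2. The intervals of Klf2 and Klf3 thus leave room for differences of more than 1.5-fold in either direction.

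The other members, apart from Klf4, had narrower intervals at rest. Klf9 had 28.1, 30.5 and 20.1 CPM in resting cKO libraries, against 39.4, 26.4 and 37.4 CPM in resting control libraries, and control replicate 2 lay within the cKO range. Its log2 fold change was -0.39 ± 0.15, with a 95% interval of -0.71 to -0.07 (SE, unadjusted p = 0.018 and adjusted p = 1 in edgeR). Klf10 had 55.4, 75.0 and 67.4 CPM in resting cKO libraries, against 85.4, 74.1 and 103 CPM in resting control libraries, where cKO replicate 2 exceeded control replicate 2. Its log2 fold change was -0.41 ± 0.19, with a 95% interval of -0.81 to -0.01 (SE, unadjusted p = 0.047 and adjusted p = 1 in edgeR). Klf4 differed by -0.62 ± 0.33 (log2, SE) at 1.32, 2.06 and 1.86 CPM in resting cKO libraries, against 2.35, 2.02 and 3.63 CPM in resting control libraries. For Klf6, Klf7, Klf11, Klf12 and Klf13 the log2 fold changes lay between -0.27 and -0.05, and the lowest bound of their 95% intervals was -0.75. In all, 1 of the 10 values lay above 0 at rest, beside 48.7% of all genes, but on log2(TPM + 0.1) and log2(TPM + 1) 5 of 10 did, Klf2, Klf3, Klf6, Klf11 and Klf13. On these scales the median of all genes was 0.15 and 0.12.

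After stimulation no member was called between stimulated cKO and stimulated control cells by edgeR, DESeq2 or limma on TPM, and 0 of 10 had an unadjusted p under 0.05 in edgeR, against 1.81% of all genes. The groups overlapped for all 10 members, and did not overlap for 0.659% of all genes. Asb2 was the single gene called by edgeR, 0.0064% of those tested. Log2 fold changes of the members lay between -0.07 for Klf11 and 0.16 for Klf3. The 95% interval was -0.10 to 0.32 for Klf6, -0.16 to 0.25 for Klf13 and -0.22 to 0.45 for Klf10, but -1.03 to 1.1 for Klf2, which had few counts.

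**Figure D4:**
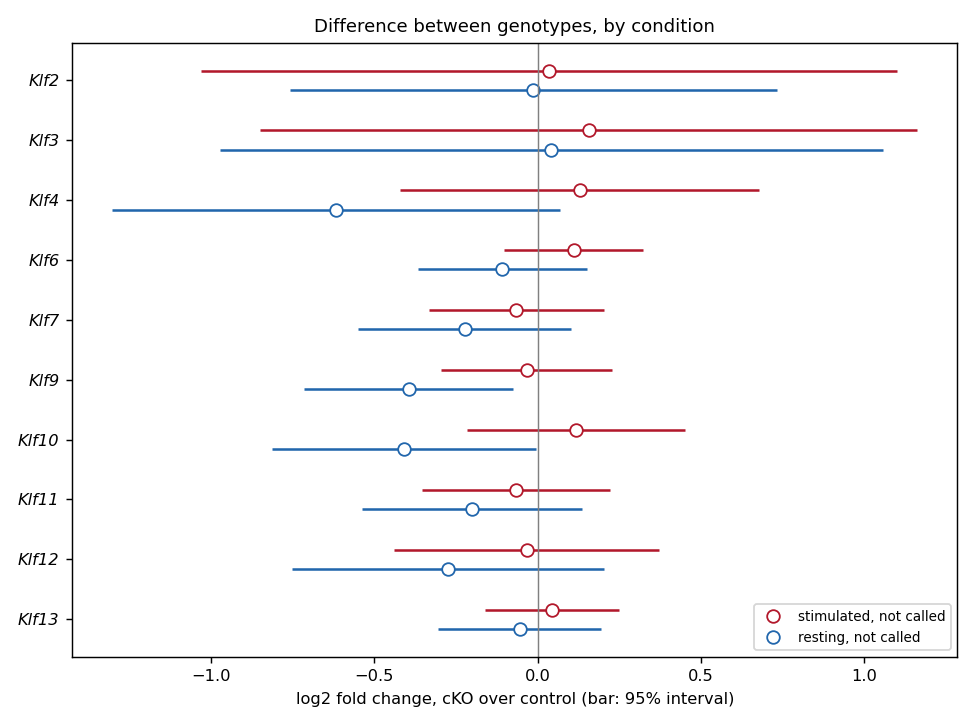
Log2 fold change of each gene between cKO and control cells, after stimulation and at rest, from edgeR's model. Bars are 95% intervals and none of the 10 was called; only the intervals of Klf9 and Klf10 at rest exclude 0.

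Whether the response to stimulation differed between genotypes was tested as an interaction. No member was called by edgeR, DESeq2 or limma on TPM. Klf10 alone had an unadjusted p under 0.05 in edgeR, against 3.87% of all genes, with a response 0.53 ± 0.25 higher in cKO than in control (log2, SE, unadjusted p = 0.049 and adjusted p = 0.997). The calls of Klf10, Klf12 and Klf13 in control but not in cKO are therefore not shown to differ between genotypes. For Klf2 the difference between the responses was 0.05, with a 95% interval of -1.25 to 1.35.

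The spread of Klf2 and Klf3 between resting libraries was itself unusual in size. Klf2 varied 3.61-fold between its highest and lowest resting library, and its SD on the log2 scale was larger than that of 98.4% of the genes tested. Klf3 varied 4.04-fold, with an SD larger than that of 99.3% of genes. The other 8 members varied between 1.29-fold for Klf13 and 2.75-fold for Klf4. Over the 9 stimulated libraries Klf2 varied 1.98-fold and Klf3 1.87-fold.

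Genes known to be lowered when KLF2 is deleted from mouse T cells were followed over the same 6 libraries. S1pr1, the receptor for exit from lymphoid organs, had 275, 163 and 214 CPM in resting cKO libraries and 222, 322 and 129.9 CPM in resting control libraries. Its order of libraries was that of Klf2 except for 1 neighbouring swap. Over the 6 libraries its Pearson r with Klf2 was 0.99 on the log2 scale (exact permutation p = 0.0028, adjusted p = 0.036 over 13 relations) and its Spearman rho was 0.94 (exact permutation p = 0.017, adjusted p = 0.11). Without the 2 libraries farthest from the median of Klf2, r was 0.97, and leaving out each library in turn gave 0.98 to 0.99. Itgb7, an integrin chain for gut homing, had r = 0.93 (exact permutation adjusted p = 0.054).

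Among the members, Klf3 had r = 0.78 with Klf2 (exact permutation adjusted p = 0.16, rho = 0.89 with adjusted p = 0.14), and r was 0.49 without the 2 farthest libraries. Klf13 had r = 0.80 (exact permutation adjusted p = 0.16). Ccr7 had r = 0.39, and no member passed the threshold after adjustment. By the rule of highest r among 9405 genes with at least 5 CPM, the genes most like Klf2 over the resting libraries were Flot2, Fry, Rmi1, Ripor2 and S1pr1. Over all 15 libraries they were Zfp217, Add3, Kbtbd11, Ripor2 and Pcyt1b, at r of 0.99 or above among 9448 genes, where the points share the contrast of stimulated and resting groups. Over the 6 resting libraries, the highest r picked from so many genes is high by selection. S1pr1 entered that list by the same values as above.

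Some markers of other cells stood highest in the resting library with the least Klf2. Resting control replicate 3, lowest in Klf2 and S1pr1, had the highest summed CPM of the 3 NK cell markers, 18.2 against 3.10 to 6.40 in the other 5 resting libraries. This came from Klrb1c at 17.8 CPM, while Ncr1 reached at most 8 counts and Klra8 2 counts in any library. The same library had the highest summed CPM of the 5 myeloid markers, 20.1 against 10.4 to 16.9, with Adgre1 at 17.2 CPM against 7.26 to 15.7 CPM. It also had the highest summed CPM of Cd8a and Cd8b1, 27.8 against 7.39 to 18.4. The sum of the 4 naive T cell markers was 692 CPM in it and highest in control replicate 2, at 953 CPM, the library with the most Klf2, but it was lowest in cKO replicate 3, at 672 CPM. The summed CPM of the 5 B cell markers was instead highest in cKO replicate 1, at 5.35, and was 3.33 in control replicate 3. The part of these markers in the spread of Klf2 was not tested.

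**Figure D5:**
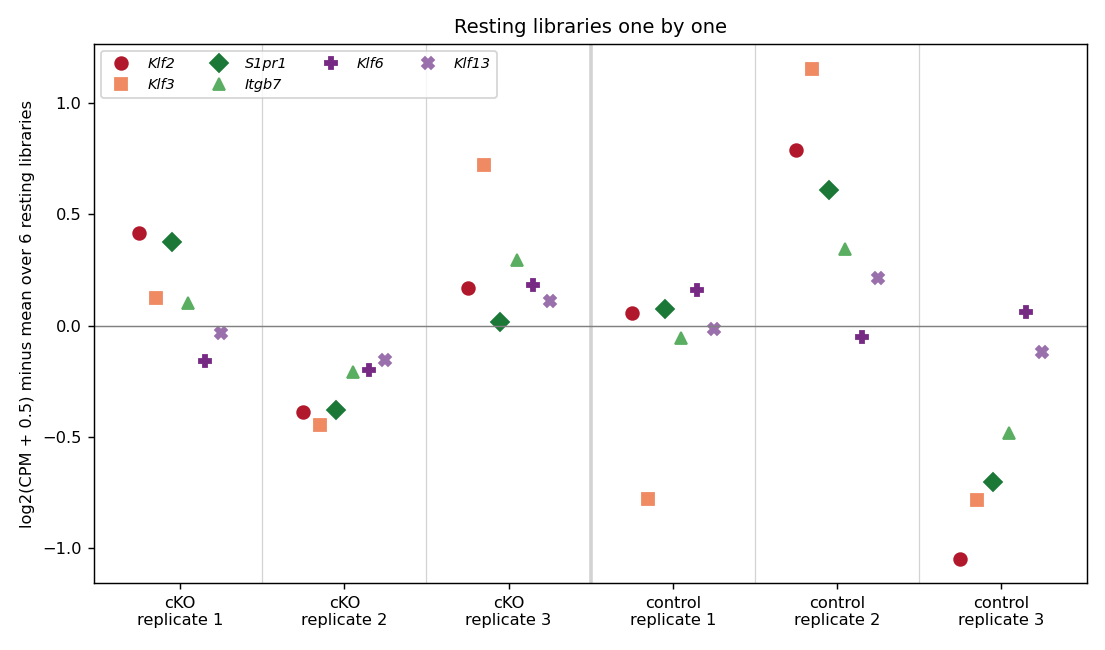
Each of the 6 resting libraries is shown apart, cKO left of control, with log2(CPM + 0.5) minus the mean over the 6 libraries for 6 genes. Klf2 and S1pr1 lie high in control replicate 2 and low in control replicate 3, while Klf6 and Klf13 stay close to 0 in every library.

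Stimulation separated these genes. S1pr1 had 187, 209.8, 196 and 155 CPM in stimulated cKO libraries, overlapping the resting cKO libraries, and its log2 fold change was -0.22 ± 0.32 in cKO and -0.22 ± 0.30 in control, not called in either. Itgb7 fell by 2.47 ± 0.16 in cKO (SE, edgeR adjusted p = 2.4e-09) and by 2.40 ± 0.15 in control (SE, edgeR adjusted p = 1.3e-09). Ccr7 was not called in either genotype. Among genes reported as raised in KLF2-deficient mouse T cells, Il4 rose, at 133 CPM in stimulated against 7.31 CPM in resting cKO cells and 115 CPM in stimulated against 10.4 CPM in resting control cells. Cxcr3 fell, by 1.35 ± 0.41 in cKO and 1.04 ± 0.38 in control (log2, SE), and Ccr3 was not called. The Cxcr3 call was lost without resting cKO replicate 3 (-0.89, edgeR adjusted p = 0.10), and in control without stimulated replicates 2, 3 or 5 or resting replicates 2 or 3, with log2 fold changes between -1.1 and -0.62 and edgeR adjusted p of 0.054 to 0.23.

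Regulators known to act upstream of Klf2 were counted next to it. KLF2 transcription is driven by FOXO1, which PI3K and AKT signalling keeps out of the nucleus, and by the ERK5-MEF2 route. Of 12 such genes, 2 rose and 7 fell in cKO, and 1 rose and 7 fell in control, where over all genes 26.7% rose and 27.1% fell in cKO and 25.4% rose and 25.2% fell in control. By limma on either TPM scale 2 rose and 8 fell in cKO, and 2 rose and 4 fell in control. Of all 15619 genes, limma on log2(TPM + 0.1) had 2583 higher and 3443 lower in cKO, and 3754 higher and 2108 lower in control. In edgeR the median log2 fold change of the 12 genes was -0.62 in cKO and -0.42 in control, beside the medians of all genes given above. Foxo1 RNA was 200.5 CPM in stimulated against 125 CPM in resting cKO cells and 200.3 CPM in stimulated against 142 CPM in resting control cells, and it rose in both, as Akt2 did in cKO (Foxo1, edgeR adjusted p = 7.147e-05 in cKO and 0.0010 in control). Mef2a, a factor of that route, fell by 0.94 ± 0.14 in cKO and 1.05 ± 0.13 in control (log2, SE). Mef2d fell by 0.70 ± 0.11 in cKO and 0.88 ± 0.10 in control, and Pik3cd, a catalytic subunit of PI3K, by 0.71 ± 0.11 in cKO and 0.69 ± 0.11 in control (log2, SE).

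For the TGF-beta pathway that induces Klf10 and Klf11, 3 of 11 genes rose and 6 fell in cKO, and 2 rose and 6 fell in control, beside the same shares of all genes. By limma on either TPM scale 2 rose and 3 fell in cKO and 1 rose and 3 fell in control, as Tgfb1, Smad2, Smad4 and Ski lost their calls in both genotypes. On log2(TPM + 0.1) 2583 of all 15619 genes rose and 3443 fell in cKO, and 3754 rose and 2108 fell in control. In edgeR the median log2 fold change of the 11 genes was -0.26 in cKO and -0.39 in control. The receptor gene Tgfbr1 fell by 1.64 ± 0.13 in cKO and 1.78 ± 0.12 in control, and Tgfbr2 by 0.63 ± 0.08 in cKO and 0.61 ± 0.07 in control (log2, SE). The ligand gene Tgfb3 fell by 1.17 ± 0.27 in cKO and 1.48 ± 0.24 in control (log2, SE). Tgfb2 rose in cKO on few counts, at 0.588 CPM in stimulated against 0.0327 CPM in resting cells. Skil, which encodes an inhibitor of SMAD signalling, rose by 1.02 ± 0.13 in cKO and 0.82 ± 0.13 in control (log2, SE). Among 7 corepressor genes, Ctbp2 rose to 11.0 CPM in stimulated cKO, against 0.778 CPM in resting cKO, and to 10.3 CPM in stimulated control, against 1.22 CPM in resting control. Hdac2 rose by 1.53 ± 0.11 in cKO and 1.39 ± 0.10 in control, and Ctbp1 fell by 0.34 ± 0.08 in both (log2, SE). Sin3a and Sap30 fell in control, and the other corepressor genes were not called. On TPM scales Ctbp1 lost its call in both genotypes, and Sin3a and Sap30 lost theirs in control.

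The related families moved little or fell. Of 7 further Kruppel-like factor genes 3 were tested, Klf5, Klf8 and Klf16, and only Klf16 was called, in control, with a log2 fold change of -0.42 ± 0.14 (SE, edgeR adjusted p = 0.017), and without resting control replicate 3 it was -0.29 (edgeR adjusted p = 0.13). Of 9 genes for the Sp factors, which bind the same GC boxes, 5 were tested. In cKO Sp1, Sp2 and Sp6 fell, and in control all 5 tested fell. Over all genes tested 27.1% fell in cKO and 25.2% fell in control. On TPM scales, however, Sp6 alone of the 5 kept its call in control, and Sp2 lost its call in cKO. Sp6 fell most, by 3.17 ± 0.33 in cKO and 2.57 ± 0.31 in control (log2, SE), at 0.886 CPM in stimulated against 7.95 CPM in resting cKO cells and 0.977 CPM in stimulated against 5.80 CPM in resting control cells. No gene of these lists was called between genotypes or in the interaction.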

How the data were processed

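RNA of 15 Th2 libraries was measured by sequencing of stranded total RNA depleted of ribosomal RNA, per the labels' protocols. Estimated counts per gene were deposited by the authors unscaled, and TPM values were deposited as the authors scaled them within each library for length and depth. Cutadapt 3.4, STAR 2.7.9a, Salmon 1.10.1 and GRCm39 are named, per the submitters' processing notes; their roles, the annotation release and the strand setting are not given in the sources used here.

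Estimated counts were rounded, filtered by filterByExpr and scaled by trimmed means of M-values in edgeR 4.0.16 (R 4.3.3). A robust quasi-likelihood model with 1 mean per group was fitted to all 15 libraries, and p-values were two-sided and adjusted over the 15619 genes kept, which held at least 99.9% of counts. The biological coefficient of variation was 15.4%. The code was checked on simulated data. Intervals on fold changes are 95%. Alternatives were DESeq2 1.42.0, limma 3.58.1 on log2 TPM with pseudocounts of 0.1 and 1, other scaling and filters, fits to the compared groups alone, blocks for replicate numbers, and leaving out each library. Correlations of Klf2 used log2(CPM + 0.5), two-sided exact permutation tests and 13 relations. No library pair of a group was identical.

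The text names the 10 genes, Asb2, called Klf and Sp genes, up to 4 called genes with the smallest p from each other list, and the 5 genes most like Klf2; a few such genes are left unreported. The sum over 4 naive T cell markers was set, and Foxo1, Akt2 and Sap30 named, after their values were seen, as were the motifs, the markers and the list genes that were not called. The members and lists were chosen with earlier results of these data known. RefSeq promoters were matched by symbol for 9 of the 10 genes; Klf10 is named only.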

Additional observations from a re-analysis of the deposited data

How the results depend on the processing

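Klf2, Klf3 and Klf6 kept their direction and their calls in both genotypes under all 16 alternatives for cKO and all 17 for control, and Klf11 did so in cKO. In control, 7 members were called, but 4 were called by limma on log2(TPM + 0.1) and 4 on log2(TPM + 1). Klf11, Klf12 and Klf13 lost their calls there, and Klf12 changed sign, to 0.030 and 0.023. On these scales the median of all genes was 0.14 and 0.11, and relative to it Klf12 was at -0.11 and -0.08; the cause was not tested. The Klf12 call was also lost without a filter on low counts and with only the groups compared, at edgeR adjusted p of 0.051 in both. In cKO, 4 members were called, and Klf4 was called as a further gene by DESeq2 and without a filter on low counts. The control calls of Klf16, Sp1, Sp2, Sp3, Sp4, Cxcr3, Tgfb1, Smad2, Smad4, Ski, Ctbp1, Sin3a, Sap30, Foxo4, Akt1 and Map2k5 were lost on TPM scales as well, as were the cKO calls of Sp2, Tgfb1, Smad2, Smad4, Ski and Ctbp1. Leaving out 1 library at a time gave 4 to 6 called members in cKO and 5 to 7 in control. No alternative called a member between genotypes or in the interaction, although values that were not called changed sign in 16 of 140 cases at rest, 16 of 170 after stimulation and 23 of 230 in the interaction.

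With the replicate number as a replicate block, 5 members were called in cKO, Klf4 included, and 6 in control, without Klf13; with the replicate block within genotype, 4 and 7 were called. The numbers are not shown to pair libraries: same-numbered stimulated and resting libraries had deviations correlated at 0.09 to 0.14 in cKO, each best with its own number, but at -0.24 to 0.13 in control, as a hint from the data and not the design.

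The correlation of Klf2 with S1pr1 kept its size without each library in turn, but 5 libraries leave little room for an adjusted p under 0.05, and it ran from 0.036 to 0.22. Klf2, Klf3 and Klf4 in stimulated libraries rest on 19 to 67 counts each, which widens their intervals between genotypes.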
